A study of Mus musculus with 3 samples.

Results

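The genes described here are the 10 that encode the vascular endothelial growth factors (VEGF) and the proteins that bind them on the cell surface. They were taken by symbol from the gene list of the 3 count matrices, and all 10 were found once among 32285 genes. They comprise 5 ligand genes (Vegfa, Vegfb, Vegfc, Vegfd and Pgf), 3 receptor tyrosine kinase genes (Flt1, Kdr and Flt4) and 2 co-receptor genes (Nrp1 and Nrp2). The femoral arteries of male wild-type (WT) mice aged 8 weeks were taken from sham-operated animals (Sham) or at 2 days (D2) or 7 days (D7) following wire injury. Live singlets were isolated by cell sorting, and each group is 1 droplet library into which the cells of 6 mice had been pooled. The labels name neither the mouse strain nor the day on which the sham arteries were taken. With 1 pooled library per group, differences between mice cannot be seen and no test between groups was possible, so the results below are levels, ratios and counts.

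VEGF-A is the chief growth and survival factor of blood vessel endothelium. It signals through VEGFR-2, the product of Kdr, while VEGFR-1, the product of Flt1, binds VEGF-A more tightly but signals weakly, exists in a soluble form and also binds VEGF-B and placental growth factor, the product of Pgf. VEGF-C and VEGF-D act mainly through VEGFR-3, the product of Flt4, on lymphatic endothelium. Neuropilin-1 and neuropilin-2, the products of Nrp1 and Nrp2, present these ligands to the receptor kinases and are also receptors of class 3 semaphorins. In a healthy artery the receptors are known from the endothelial lining and the small vessels of the outer wall, and a wire passed along the artery strips that lining.

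The libraries held 39756684 (Sham), 98260210 (D2) and 100571340 (D7) UMIs (unique molecular identifiers, 1 per captured transcript) in 7757, 11690 and 11574 barcodes, of which 7346, 11001 and 10983 were kept as cells. Between 21 and 29 barcode sequences were shared by any 2 libraries. Cells were grouped by clustering without the 10 genes, and clusters were named from marker genes, so that class names carry "-like" and may differ from the study's own. The cells are labelled arterial, yet smooth muscle-like cells made up 2.06% of cells in Sham, 0.145% in D2 and 2.77% in D7, and fibroblast-like and immune cells made up most of each library. Levels are given in CPM, counts per 1000000 UMIs summed over the cells of a class in a library, with 95% Poisson intervals that cover counting error only, and cover too little of it where a gene's UMIs sit in a handful of cells. Only classes with at least 50 cells in a library are compared, and levels are compared within a gene, because tags from transcript ends were not set against gene length.

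**Figure D1:**
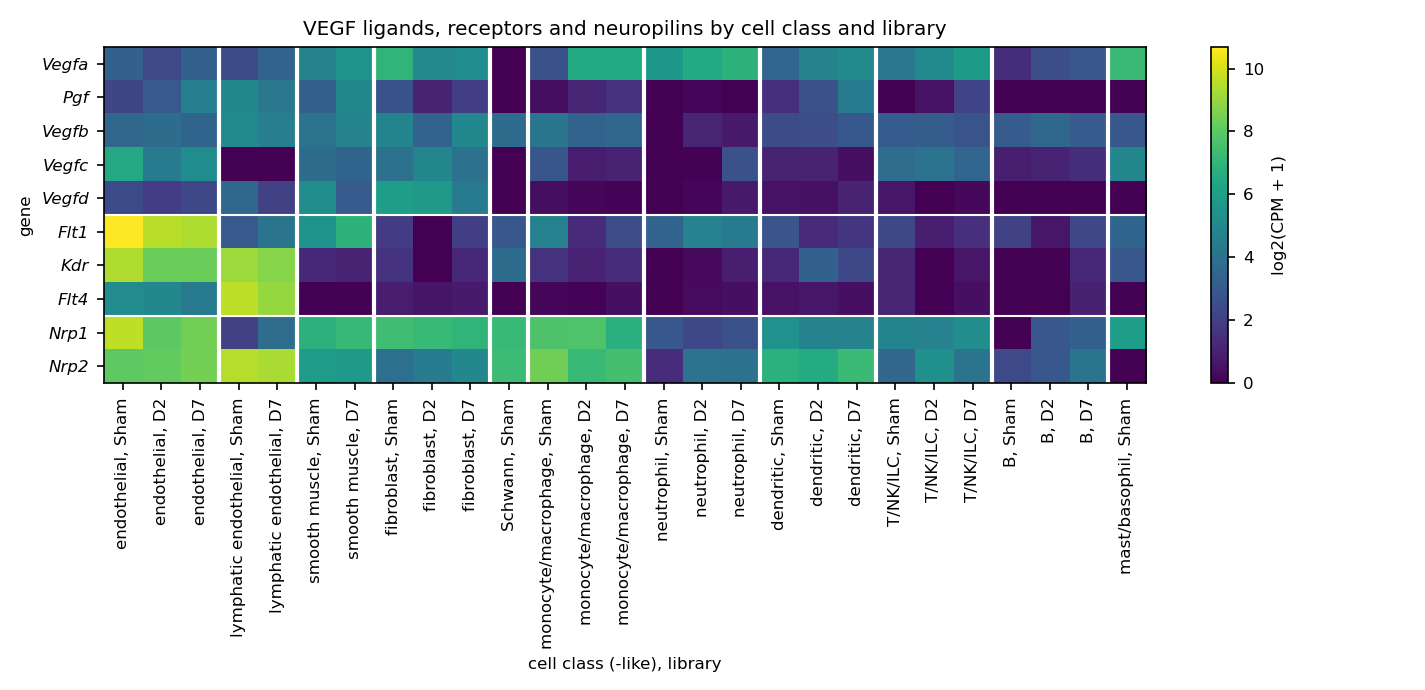
Levels of the 10 genes, as log2(CPM + 1) by colour, in each cell class and library with at least 50 cells (columns, grouped by class; rows run from ligands to receptors and neuropilins). Flt1, Kdr and Nrp1 are brightest in endothelial-like cells, Kdr, Flt4 and Nrp2 in lymphatic endothelial-like cells, and in the Vegfa row, monocyte/macrophage-like cells are dim in Sham and bright in D2 and D7.

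Flt1 lay mainly in blood endothelial-like cells, Flt4 mainly in lymphatic endothelial-like cells, and Kdr in both. Blood endothelial-like cells (468 cells in Sham, 94 in D2 and 395 in D7) held 91.0% of all Flt1 UMIs in Sham, 62.6% in D2 and 68.4% in D7. They held 57.6%, 54.8% and 61.9% of the Kdr UMIs of the same libraries. Lymphatic endothelial-like cells (316 cells in Sham, 30 in D2 and 140 in D7) held 93.5% of the Flt4 UMIs in Sham and 82.2% in D7. They also held 39.6% of the Kdr UMIs in Sham, 24.5% in D2 and 28.5% in D7. Outside endothelium, dendritic-like cells held 109 of the 812 Kdr UMIs of D2. Their Kdr level was low, at 1.29 CPM in Sham (6 UMIs), 8.95 CPM in D2 and 4.04 CPM in D7 (24 UMIs). All 10 genes were found under their symbols in the GENCODE annotation of GRCm38, the assembly behind the mm10 build that the submitters name. Kdr (ENSMUSG00000062960, chr5:75932827-75978458) and Flt1 (ENSMUSG00000029648, chr5:147561604-147726011) both lie on the minus strand of chromosome 5, and Flt4 (ENSMUSG00000020357, chr11:49609263-49652739) on the plus strand of chromosome 11. The neuropilin genes Nrp1 (ENSMUSG00000025810, chr8:128358604-128503363) and Nrp2 (ENSMUSG00000025969, chr1:62703285-62818695) are on plus strands.

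In endothelial-like cells, Kdr, Flt1, Nrp1 and Vegfc were each lower in both injured libraries than in Sham, whereas Nrp2 was not. Kdr stood at 675 CPM in Sham (interval 638.2 to 713), 309.9 CPM in D2 (281.8 to 340.1) and 308.5 CPM in D7 (288.2 to 329.9). Flt1 stood at 1648 CPM in Sham (1590.0 to 1707), 751 CPM in D2 (707.3 to 797.7) and 662 CPM in D7 (632.2 to 693.2). Nrp1 stood at 809.8 CPM in Sham, 254 CPM in D2 and 337 CPM in D7. For each of these genes the Sham interval lay above both others, and the D2 and D7 intervals overlapped for Kdr but not for Flt1 or Nrp1. The ratio to Sham was 0.459 for Kdr in D2 (0.411 to 0.512) and 0.457 in D7 (0.419 to 0.499). For Flt1 it was 0.456 in D2 (0.425 to 0.489) and 0.402 in D7 (0.379 to 0.426), and for Nrp1 0.314 in D2 (0.279 to 0.352) and 0.416 in D7 (0.383 to 0.452). Nrp1 was thus the gene of the 3 that was higher in D7 than in D2, by a ratio of 1.33 (1.17 to 1.501).

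Vegfc, the only ligand gene above 50 CPM in endothelial-like cells, stood at 87.7 CPM in Sham (74.8 to 102.1), 20.2 CPM in D2 (13.5 to 29.0) and 35.4 CPM in D7 (28.7 to 43.1). Its ratio to Sham was 0.230 in D2 (0.150 to 0.343), where 3 cells held 58.6% of its 29 UMIs, and 0.403 in D7 (0.311 to 0.521). Nrp2 stood at 264.6 CPM in Sham, 275.8 CPM in D2 and 345.0 CPM in D7. Its D2 to Sham ratio was 1.04 (0.911 to 1.19), with overlapping intervals, and its D7 to Sham ratio was 1.30 (1.17 to 1.46). Flt4 was low in this class, at 35.1 CPM in Sham, 29.9 CPM in D2 and 19.5 CPM in D7. Pgf had 23.5 CPM in D7 (65 UMIs) against 3.72 CPM in Sham (7 UMIs), a ratio of 6.31 with a wide interval of 2.89 to 16.3.

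A gene was measured in a pair of libraries if the higher of them reached 50 CPM and 20 UMIs, and was counted as apart if (CPM + 1) differed by 2-fold or more, a description and not a test. By that rule 4 of the 5 genes of the family measured in endothelial-like cells were lower in D2 than in Sham, where 20.9% of all 4232 genes at that level were apart in either direction. The same 4 of 5 were lower in D7 than in Sham, where 12.4% of 4158 genes were apart. Between D7 and D2, 0 of 4 were apart, where the share over all genes was 3.41%. The 14 endothelial marker genes used to name the class had a median log2 ratio of -0.22 in D2 against Sham and -0.15 in D7 against Sham. Of these 14, 3 were lower in D2 (Cldn5, a tight junction protein, Ptprb, a phosphatase that binds VE-cadherin, and Gpihbp1, which carries lipoprotein lipase in capillaries) and 1 in D7 (Gpihbp1), and 0 were higher in either. Cell depth differed as well, with a median of 3444 UMIs per cell in Sham, 12113 in D2 and 5499 in D7. Markers of immune classes stood at 4.70%, 2.05% and 12.7% of their level in the whole library, by the median over the monocyte/macrophage, neutrophil and B lists. With free RNA subtracted at these rates, the 4 genes stayed at least 2-fold lower in both injured libraries. Shares of cells at equal depth are given next, and the part of depth or free RNA was not tested further.

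The lower receptor levels were also seen as fewer cells with a transcript once depth was made equal. After every cell had been thinned to 1000 UMIs, which left out 49 shallower Sham, 4 D2 and 20 D7 endothelial-like cells, Flt1 was found in 67.1% of cells in Sham, in 45 of the 90 cells in D2 and in 45.1% in D7. Kdr was found in 36.5%, 21.1% and 26.4% of the thinned cells of these libraries, and Nrp1 in 45.8%, 16.7% and 29.9%. In B-like cells, which should lack both receptors and have median depths of 4114, 4566 and 3509 UMIs, thinned shares were at most 0.358% for Flt1 and 0.260% for Kdr, and for Nrp1 they reached 1.10% in D2. Without thinning, Flt1 was found in 84.8% of endothelial-like cells in Sham, 85.1% in D2 and 86.6% in D7, and Kdr in 57.9%, 77.7% and 61.0%, against at most 1.43% and 0.388% of B-like cells. Kdr, Flt1 and Nrp1 were found together in 47.4% of unthinned cells in Sham, 59.6% in D2 and 45.6% in D7, and 8.12%, 10.6% and 6.33% of cells carried none of them.

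**Figure D2:**
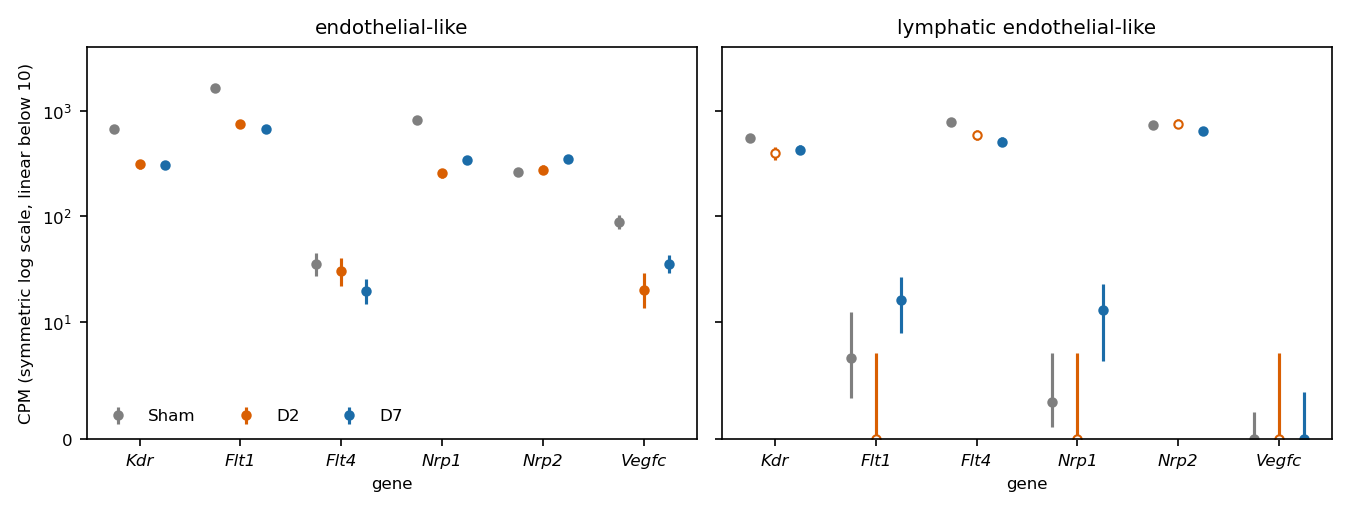
CPM (symmetric log axis, linear below 10) of the receptor genes, the neuropilin genes and Vegfc in endothelial-like (left) and lymphatic endothelial-like cells (right) of Sham, D2 and D7, with exact 95% Poisson intervals as bars; open circles mark the 30 lymphatic cells of D2, too few to compare. Kdr, Flt1, Nrp1 and Vegfc of endothelial-like cells are lower in D2 and D7 than in Sham, and Nrp2 is not.

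Kdr and Flt1, both lower over the whole class in D2 and D7 than in Sham, are shown with the bases just upstream of their transcription starts, where a promoter lies. The windows are the 250 bases before the RefSeq start on GRCm38.p6, read along the gene on the minus strand, at chr5:75978456-75978705 for Kdr and chr5:147726012-147726261 for Flt1. Capitals mark the GC box GGGCGG, the core site of Sp1-type factors, on either strand (CCGCCC on the strand shown), and the TATA box TATAAA.

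Kdr: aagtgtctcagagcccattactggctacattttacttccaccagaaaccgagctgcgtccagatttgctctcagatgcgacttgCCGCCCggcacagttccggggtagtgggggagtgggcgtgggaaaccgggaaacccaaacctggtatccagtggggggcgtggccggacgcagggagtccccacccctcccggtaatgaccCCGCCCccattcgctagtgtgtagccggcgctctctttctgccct

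Flt1: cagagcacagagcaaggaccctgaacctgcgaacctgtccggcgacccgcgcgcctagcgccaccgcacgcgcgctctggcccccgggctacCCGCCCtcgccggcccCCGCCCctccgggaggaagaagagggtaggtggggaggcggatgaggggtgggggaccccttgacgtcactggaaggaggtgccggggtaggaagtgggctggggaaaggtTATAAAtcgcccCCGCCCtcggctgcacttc

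The Kdr window held 2 GC boxes and no TATAAA, and the Flt1 window held 3 GC boxes and 1 TATAAA. Of all 32851 RefSeq windows of this length, 32.7% held a GC box on either strand and 12.4% a TATAAA on either strand. Over the first windows of all 10 genes, the number of GC boxes ran from 0 for Vegfd to 5 for Nrp2. Flt1 and Vegfd were those with a TATAAA. These matches describe the letters and say nothing of which factors bound.

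Endothelial-like cells were not uniform, and the mixture of their kinds differed between libraries. Sub-clustering, chosen after seeing the data, gave groups led by Timp4, Car4 and Lpl (191 cells in Sham, 9 in D2 and 41 in D7), 2 venous-like groups, an arterial-like group led by Nebl, Sema3g and Gja4, and others that kept no name. Of the unnamed groups, that led by Gkn3, Acta2 and Gja5 scored highest of all groups on the arterial markers. It kept no name because Acta2 is a smooth muscle marker, and any admixture of muscle cells there was not tested. Kdr was highest in a group led by Itm2a and Col13a1, with 1353 CPM in its 55 Sham cells, of which D2 held 3 cells and D7 held 7. It was next highest in the Timp4/Car4 group, with 711 CPM in D7 (599 to 838) against 968 CPM in Sham (894.3 to 1046). The venous-like groups had far less Kdr, with 131 CPM in D7 against 154 CPM in Sham in the Gria3/Htr2b group and 313.5 CPM in D7 against 251 CPM in Sham in the Sele/Ackr1 group, and both pairs of intervals overlapped. In arterial-like cells Kdr was higher in D7, at 415 CPM against 213 CPM in Sham. In the group led by Gkn3, Acta2 and Gja5 it was 74.5 CPM in D7 (48.7 to 109.1) against 0 UMIs in Sham (upper bound 18.25 CPM). The direction for Kdr thus differed between the groups of cells.

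Flt1 was more uniform in direction. It was lower in D7 than in Sham in the Timp4/Car4 group (1297 against 1834 CPM), in both venous-like groups (746 against 1010.0 CPM and 547.5 against 1020.0 CPM) and in arterial-like cells (956 against 1458 CPM), each without overlap of intervals. The Gkn3/Acta2 group, which scored highest on the arterial markers, went the other way, with 404 CPM in D7 against 188 CPM in Sham. In the venous-like groups D2 also lay below Sham, at 588 CPM in the Gria3/Htr2b group and 693 CPM in the Sele/Ackr1 group. Vegfc in Sham was highest in arterial-like cells, with 83.8 CPM in D7 (52.5 to 127) against 473 CPM in Sham (361 to 609). It was next highest in Sham in the Gkn3/Acta2 group, at 103 CPM in D7 (72.2 to 142.8) against 218 CPM in Sham, so that the arterial-like and Gkn3/Acta2 intervals overlapped in D7. It was low in the venous-like group led by Sele, at 10.4 CPM in D7 against 45.7 CPM in Sham. Nrp2 had the reverse distribution, with 544 and 434 CPM in the venous-like groups of D7 and 148.5 CPM in its arterial-like cells, against 319.5, 609 and 47.3 CPM in the same groups of Sham. Of 65 Pgf UMIs in D7 endothelial-like cells, 40 lay in the 25 cells of the Gkn3/Acta2 group, a level of 115 CPM, against 4.95 CPM in Sham.

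When the 6 sub-clusters with at least 20 cells in both libraries were weighted alike, by their UMIs in Sham, 3 of the 4 differences between D7 and Sham fell under 2-fold. This alternative was added after seeing the data. It leaves out the Itm2a/Col13a1 group, which had 55 cells in Sham and 7 in D7. In Sham that group had the highest Kdr, Flt1 and Nrp1, at 1353, 3213 and 1434 CPM, so the weighted Sham levels lack it. Kdr then came to 432.2 CPM in D7 against 520.9 CPM in Sham (ratio 0.830), Flt1 to 944.7 against 1310.0 CPM (0.721) and Nrp1 to 567.3 against 655.4 CPM (0.866). Vegfc kept a ratio of 0.303, with 33.9 CPM in D7 against 112 CPM in Sham, and Nrp2 had a ratio of 1.39. D2 had too few cells per group for the same calculation. Leaving out the group led by Il1b and S100a8, genes of myeloid cells, changed no call.

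**Figure D3:**
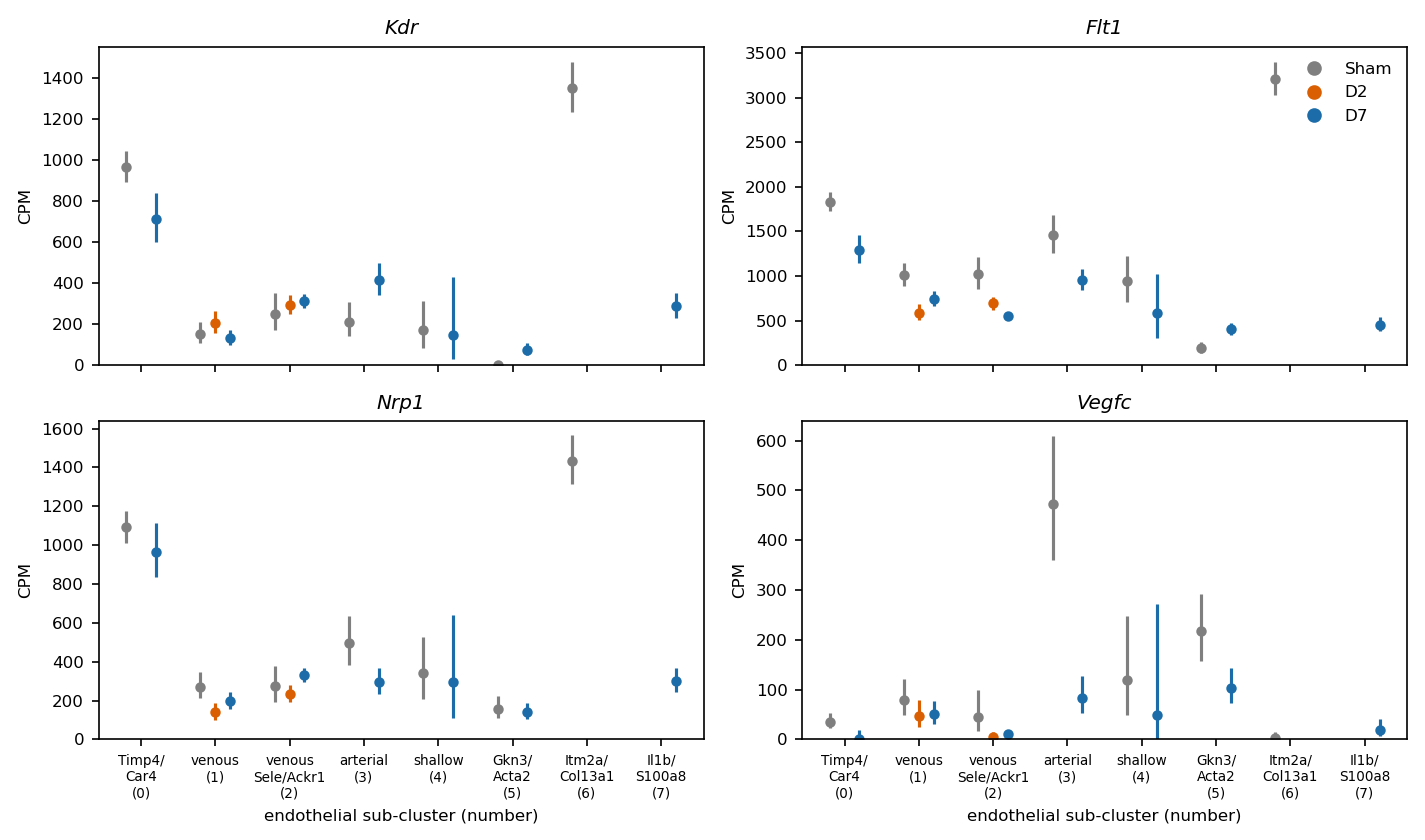
CPM of Kdr, Flt1, Nrp1 and Vegfc in endothelial sub-clusters (columns, by leading genes and number) of Sham, D2 and D7, with exact 95% Poisson intervals, for libraries with at least 20 cells of a sub-cluster. Kdr and Nrp1 are highest in sub-clusters 6 and 0, Vegfc is highest in the arterial-like sub-cluster of Sham at 473 CPM, and Flt1 of D7 lies below Sham in sub-clusters 0, 1, 2 and 3 and above it in 5.

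Genes that work with these receptors, from lists chosen with earlier results of these data known, were read in the same cells. The counts below stand beside the shares of all genes apart in these cells, 20.9% in D2 against Sham and 12.4% in D7 against Sham, and small lists near those shares show nothing particular to the list. Of 14 genes known to be induced by VEGF in endothelium that were measured in D7 against Sham, 5 were higher by at least 2-fold and 1 was lower (6 of 14 apart, where 12.4% of all genes were), and the median log2 ratio was 0.46 beside 0.05 over all genes. Angpt2, a vessel-destabilising ligand of Tie2, had 75.8 CPM in D7 against 13.3 CPM in Sham. Mcam, an adhesion molecule that binds VEGFR-2, had 249 CPM against 63.8 CPM, and Nid2, a basement membrane protein, had 72.9 CPM against 22.3 CPM. In D2 against Sham, 4 of 13 were higher and 4 were lower (median log2 ratio -0.45), where 20.9% of all genes were apart. Apln, the apelin peptide of sprouting tips, had 105 CPM in D2 against 20.7 CPM in Sham, while Esm1, a secreted proteoglycan of tip cells, had 5.57 CPM against 73.3 CPM. The list therefore did not move as one, and its tip cell genes Apln and Esm1 stood on opposite sides.

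Among kinases and adaptors downstream of the receptors, 2 of 19 were higher and 2 lower in D2 than in Sham, and 0 of 18 higher and 1 lower in D7 than in Sham. The D2 count is near the share over all genes. Hspb1, the small heat shock protein that links VEGFR-2 to actin, was lower in both, at 423 CPM in D2 and 414 CPM in D7 against 1396 CPM in Sham. Of 9 receptor partners at the membrane, Itgav, the integrin subunit alpha V, was higher in both, at 95.4 CPM in D2 and 116.9 CPM in D7 against 29.2 CPM in Sham. Efnb2, which guides VEGF receptor uptake, had 59.2 CPM in D2 against 172 CPM in Sham, and Ptprb had 649 CPM in D2 against 1522 CPM in Sham. In the list of regulators and targets of hypoxia-inducible factors, which drive Vegfa, 2 of 7 were higher in D2 and 1 of 7 in D7, both near the shares over all genes. Hif1a stood at 318 CPM in D2 and 317 CPM in D7 against 88.7 CPM in Sham. The list as a whole did not lie higher, with a median log2 ratio of -0.57 in D2 and 0.07 in D7, beside 0.008 and 0.05 over all genes. Of 5 semaphorins and plexins measured, 0 were higher and 2 lower in D2 (Sema3g, made by arterial endothelium, and Plxna2), and 0 of 5 were apart in D7. The list of enzymes that process VEGF-C and VEGF-D had 0 of 3 apart in either, and that of genes of VEGFR-3 and lymphatic growth had 1 of 6 lower in each, Itga9 in D2 and Gata2 in D7.

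In lymphatic endothelial-like cells the family differed less. Flt4 had 508 CPM in D7 (463.5 to 556.4) against 779 CPM in Sham (736.3 to 823.9), a ratio of 0.653 (0.586 to 0.726). Kdr had 425 CPM in D7 (384.3 to 469.4) against 551 CPM in Sham (514.9 to 588.6), a ratio of 0.772, and Nrp2 had 639 CPM against 723 CPM, a ratio of 0.884 (0.799 to 0.977). None of the 3 measured genes was 2-fold apart, where 8.46% of 4171 genes were. The 6 measured lymphatic marker genes had a median log2 ratio of -0.44, and 1 of them, Lyve1, was at least 2-fold lower. After thinning to 1000 UMIs, Flt4 was found in 35.8% of lymphatic cells in D7 against 49.8% in Sham, and in 0 of 769 and 0 of 279 B-like cells, which allows shares of up to 0.390% and 1.08%. Without thinning, Flt4 was found in 87.1% of lymphatic cells in D7 against 87.3% in Sham, at median depths of 6467 and 4633 UMIs. Lymphatic cells had 12 UMIs of Nrp1 in D7 and 5 in Sham, a level of 12.95 and 3.16 CPM, and 0 UMIs of Vegfc in either. Plat and Plau, the plasminogen activators that can lead to VEGF-C cleavage, had 51.8 and 73.4 CPM in D7 against 13.9 and 22.7 CPM in Sham, and made up 2 of 3 measured processing genes that were at least 2-fold higher. The 30 lymphatic cells of D2 had 586 CPM of Flt4 and 397 CPM of Kdr, from too few cells to compare.

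Vegfa (ENSMUSG00000023951, chr17:46016993-46032369, minus strand) was found in stromal and immune classes alike. Over whole libraries its level was similar, at 61.6 CPM in Sham, 75.6 CPM in D2 and 55.5 CPM in D7, but the cells that held it differed. Fibroblast-like cells held 86.8% of the Vegfa UMIs in Sham, 0.8999% in D2 and 25.6% in D7. Monocyte/macrophage-like cells held 1.49%, 64.7% and 41.7%, and neutrophil-like cells 1.36%, 26.1% and 12.9%. These shares follow cell numbers as well as levels, since the 3 classes had 3852, 963 and 147 cells in Sham, 113, 4232 and 4365 in D2 and 3159, 2700 and 1471 in D7. How many cells of a kind reach a library is set by dissociation and sorting too, so the cell numbers are not a result.

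The window of 250 bases before the first RefSeq start of Vegfa is shown because Vegfa carries the contrast between classes. It lies at chr17:46032378-46032627 on GRCm38.p6, minus strand, and held 2 GC boxes, in capitals, and no TATAAA.

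Vegfa: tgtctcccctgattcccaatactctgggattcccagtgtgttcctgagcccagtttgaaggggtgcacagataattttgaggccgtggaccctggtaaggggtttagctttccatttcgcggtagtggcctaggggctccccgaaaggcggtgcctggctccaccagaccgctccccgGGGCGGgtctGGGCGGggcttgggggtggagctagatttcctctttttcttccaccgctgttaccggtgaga

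The level of Vegfa within classes went in opposite directions. In monocyte/macrophage-like cells it was 5.37 CPM in Sham (3.74 to 7.46), 92.0 CPM in D2 (89.3 to 94.7) and 91.5 CPM in D7 (87.8 to 95.4). Both injured libraries lay far above Sham and did not differ beyond their intervals, with ratios to Sham of 17.1 in D2 (12.3 to 24.7) and 17.1 in D7 (12.2 to 24.6). In fibroblast-like cells Vegfa was 126 CPM in Sham (120.8 to 131.9), 31.5 CPM in D2 (24.1 to 40.4) and 35.5 CPM in D7 (33.6 to 37.4). Their ratios to Sham were 0.249 in D2 (0.191 to 0.321) and 0.281 in D7 (0.262 to 0.301). The highest class level in Sham was that of mast/basophil-like cells, 156 CPM (115.0 to 206.8) from 74 cells, which overlapped the fibroblast-like level. In D2 the monocyte/macrophage-like and neutrophil-like levels overlapped and led the order, and in D7 the neutrophil-like level led it alone.

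Neutrophil-like cells had 51.0 CPM of Vegfa in Sham (34.9 to 72.0, from 147 cells), 92.7 CPM in D2 and 120.1 CPM in D7, with ratios to Sham of 1.82 in D2 (1.28 to 2.67) and 2.36 in D7 (1.65 to 3.47). These ratios compare mostly different clusters. In Sham, 132 of the 147 cells lay in a cluster led by Retnlg and Camp, which held 453 cells in D2 and 406 in D7. The cluster led by Il23a and Acod1 held 0 cells in Sham, 2180 in D2 and 758 in D7. That led by Il1r2 and Cxcr2 held 15, 1732 and 307. Of the 1801 Vegfa UMIs of D2, 1189 lay in the Il23a/Acod1 cluster (106.6 CPM) and 519 in the Il1r2/Cxcr2 cluster (83.7 CPM). In D7 these clusters held 420 (125.9 CPM) and 139 (136.8 CPM) of 695 UMIs. The class ratios therefore do not describe the Retnlg/Camp cells, the neutrophil-like cells that all libraries share. Fibroblast and smooth muscle markers stood in D2 neutrophil-like cells at 47.7% of their level in the whole library, by the median over their lists. Taken as free RNA, that rate would give 36.1 CPM of Vegfa, and with free RNA subtracted the D2 log2 ratio to Sham was 1.10. In the same library the rate was 5.67% in T/NK/ILC-like and 7.08% in B-like cells, and B-like cells had 4.92 CPM of Vegfa. Whether the neutrophil-like rate measures free RNA was not tested. In monocyte/macrophage-like cells of D2 the same measure would give 13.04 CPM. The D7 ratio missed the 2-fold limit under 3 alternatives, with log2 ratios of 1.00 (just under the limit) at a finer clustering, 0.89 where each cell was classed singly and 0.70 with each library clustered on its own. T/NK/ILC-like cells had 18.5 CPM in Sham, 32.8 CPM in D2 and 54.9 CPM in D7, a D7 to Sham ratio of 2.96 (2.26 to 3.93). The cluster led by Gzma and Nkg7, genes of cytotoxic lymphocytes, held 209 of the 301 Vegfa UMIs of this class in D7, with 41.2 CPM in Sham, 138 CPM in D2 and 202 CPM in D7. Dendritic-like cells had 10.1 CPM in Sham, 26.2 CPM in D2 and 32.3 CPM in D7. Smooth muscle-like cells had 43.5 CPM in D7 against 26.4 CPM in Sham, and endothelial-like cells stayed at 9.03 CPM or below in every library. B-like cells had at most 6.48 CPM.

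By the 2-fold rule Vegfa was apart in fibroblast-like cells in D2 against Sham as 1 of 3 measured genes of the family, where 28.7% of all genes were apart. In D7 against Sham, Vegfa and Vegfd were lower, 2 of 3, where 17.9% were apart. In monocyte/macrophage-like cells, 1 of 3 was higher (Vegfa) and 1 lower (Nrp2) in D2 against Sham, where 13.4% were apart, and 1 of 3 was higher (Vegfa) in D7 against Sham, where 16.8% were apart, and 0 of 3 were apart between D7 and D2 (2.02%). In neutrophil-like cells Vegfa was the 1 gene measured, and it was counted in D7 against Sham, where 28.0% were apart, not in D2 against Sham (28.6%) nor in D7 against D2 (2.97%). In T/NK/ILC-like cells it was the 1 measured and was counted in D7 against Sham (5.17%), not in D7 against D2 (0.837%), while 0 genes were measured in D2 against Sham (5.64%). In B-like cells 0 were measured in D2 against Sham (6.58%), D7 against Sham (6.01%) and D7 against D2 (1.43%). Over all classes compared, 7 of 13 measured pairs of gene and class were apart in D2 against Sham (1 higher, 6 lower), 10 of 20 in D7 against Sham (4 higher, 6 lower) and 1 of 12 in D7 against D2 (lower). Over all genes, 16.8% of such pairs were apart in D2 against Sham, 13.6% in D7 against Sham and 3.65% in D7 against D2.

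**Figure D4:**
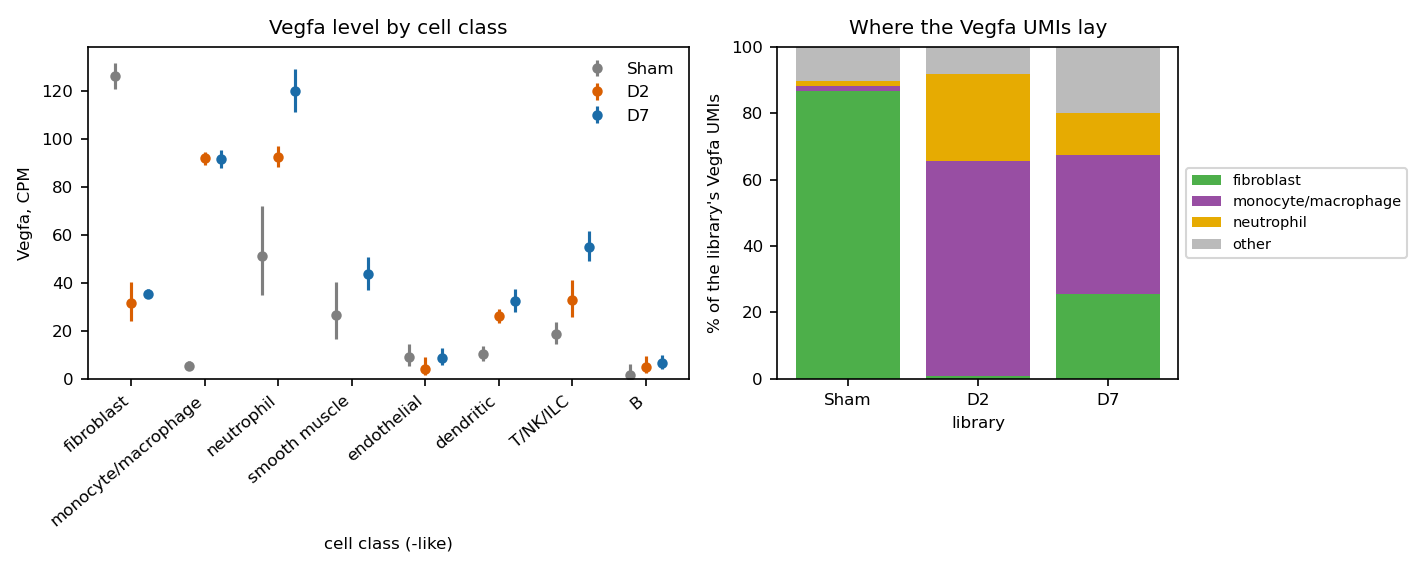
Left, Vegfa in CPM with exact 95% Poisson intervals in 8 cell classes of Sham, D2 and D7; right, percent of the Vegfa UMIs of each library that lay in fibroblast-like, monocyte/macrophage-like, neutrophil-like and other cells. The Sham points are highest in fibroblast-like cells and lie near 5.37 CPM in monocyte/macrophage-like cells, where both injured libraries are near 92.0 CPM.

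After thinning to 1000 UMIs, Vegfa was found in 10.9% of fibroblast-like cells in Sham, 3.81% in D2 and 3.55% in D7, and in 0.322%, 6.57% and 7.24% of monocyte/macrophage-like cells. Cells under that depth, which thinning left out, were 1296 fibroblast-like cells in Sham, 8 in D2 and 148 in D7, and 32, 28 and 35 monocyte/macrophage-like cells. Unthinned shares of fibroblast-like cells were 25.5%, 27.4% and 25.7%, at median depths of 1820, 8653 and 11951 UMIs. For monocyte/macrophage-like cells they were 2.39%, 30.8% and 25.2% at 7014, 11224 and 7916 UMIs, and for B-like cells 0.714%, 1.88% and 1.81%. In thinned B-like cells Vegfa was found in 0 of 279 cells in Sham and 0 of 365 in D2, which allows shares of up to 1.08% and 0.822%, and in 0.780% in D7. At this depth the Sham share of monocyte/macrophage-like cells could not be told apart from that of B-like cells, since the limit of the latter is wider. Over all UMIs the Sham level was 5.37 CPM from 35 UMIs in monocyte/macrophage-like cells, against 1.67 CPM from 2 UMIs in B-like cells.

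Different clusters held these classes in different libraries. Of the monocyte/macrophage-like cells, 716 of 963 in Sham lay in a cluster led by Cd209f and Cd163, markers of resident macrophages, which held 17 cells in D2 and 134 in D7. The monocyte-like cluster led by Chil3 and Plac8 was present in all libraries and had 14.5 CPM of Vegfa in Sham (8.46 to 23.3, 148 cells), 151 CPM in D2 (141.5 to 160.0) and 132 CPM in D7 (121.0 to 143.1). The cluster led by Mmp12 and Areg, which held 11 Sham cells, had 200 CPM in D2 and 153 CPM in D7. The cluster led by the interferon-response genes Ifit2 and Ifit3 had 63.0 CPM in D2 and 199 CPM in D7, while those led by Pf4 and Fcrls (53.8 CPM in D2 and 64.8 CPM in D7) and by Cx3cr1 and St18 (52.2 and 33.7 CPM) had less. Vegfa thus varied among injured-artery macrophages and monocytes by cluster.

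Fibroblast-like cells showed the same turnover of clusters. Sham held 1052 cells led by Inmt and Penk, 767 led by Pi16 and Sema3c and 2015 in a shallow cluster with a median of 862 UMIs, whereas 2731 of 3159 D7 and 79 of 113 D2 cells lay in a cluster led by Mfap4 and Cthrc1 that held 18 Sham cells. Within the Inmt/Penk cluster Vegfa was 120.4 CPM in D7 (92.5 to 154) against 127 CPM in Sham (118 to 136). Within the Pi16/Sema3c cluster it was 90.1 CPM in D7 (77.2 to 104) against 142 CPM in Sham (134 to 151). The Mfap4/Cthrc1 cluster had 29.1 CPM in D2 and 31.3 CPM in D7. The shallow cluster had 36.4 CPM in D7 (17.4 to 66.9, from 10 UMIs) against 73.9 CPM in Sham (62.8 to 86.4), with overlapping intervals. Vegfa was thus lower in D7 than in Sham beyond the intervals within the Pi16/Sema3c cluster, while within the Inmt/Penk cluster the intervals overlapped.

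**Figure D5:**
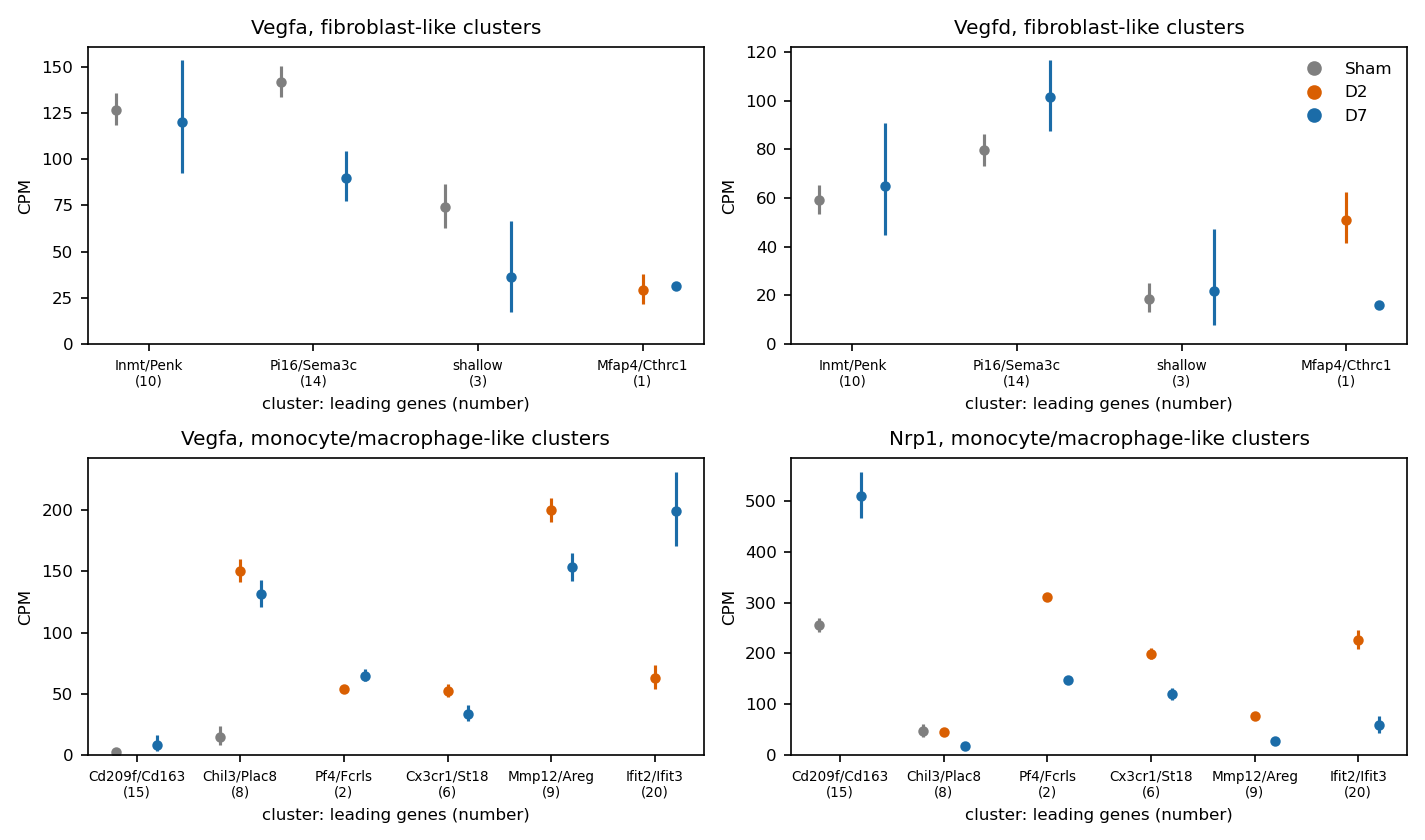
CPM with exact 95% Poisson intervals of Vegfa and Vegfd in 4 fibroblast-like clusters and of Vegfa and Nrp1 in 6 monocyte/macrophage-like clusters of Sham, D2 and D7 (columns, by leading genes and number), for libraries with at least 50 cells of a cluster. Vegfa is near 120 CPM in the Inmt/Penk cluster of both Sham and D7 and near 30 CPM in the Mfap4/Cthrc1 cluster; Nrp1 of D7 is highest in the Cd209f/Cd163 cluster at 511 CPM.

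Vegfd (ENSMUSG00000031380, chrX:164373378-164402650, plus strand) had most of its UMIs in fibroblast-like cells, with 93.8% in Sham, 78.8% in D2 and 90.8% in D7. It stood at 63.0 CPM in Sham (59.2 to 67.0), 52.8 CPM in D2 (43.2 to 64.0) and 20.9 CPM in D7 (19.5 to 22.4). The D2 and Sham intervals overlapped, and D7 lay below both, with ratios of 0.332 to Sham (0.303 to 0.365) and 0.396 to D2 (0.323 to 0.491). Between D7 and D2 it was the 1 of 2 measured genes of the family that was apart, where 12.7% of all genes were. Taken as the mean over cells, the D7 to Sham log2 ratio was -0.69, under the 2-fold limit. By cluster, Vegfd had 101 CPM in D7 against 79.6 CPM in Sham in the Pi16/Sema3c cluster and 65.0 CPM against 59.2 CPM in the Inmt/Penk cluster, but 51.1 CPM in D2 and 15.98 CPM in D7 in the Mfap4/Cthrc1 cluster. The lower D7 level was thus that of the Mfap4/Cthrc1 cells. Smooth muscle-like cells had 7.44 CPM in D7 against 36.4 CPM in Sham, from 27 and 29 UMIs. After thinning to 1000 UMIs, Vegfd was found in 3.79% of smooth muscle-like cells in Sham (1.24 to 8.62) and in 4.34% of fibroblast-like cells. In D7 these shares were 1.73% and 1.96%. The share of UMIs in fibroblast-like cells thus follows their number too, 3852 in Sham against 151 smooth muscle-like cells.

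The other ligand genes were low. Vegfb (ENSMUSG00000024962, chr19:6982473-6987651), whose product binds VEGFR-1 and acts on fatty acid handling, had 27.3 CPM in Sham, 9.65 CPM in D2 and 31.1 CPM in D7 in fibroblast-like cells. These accounted for 65.8% of its UMIs in D7. Its D2 level rested on 19 UMIs. Vegfc (ENSMUSG00000031520, chr8:54077606-54187096) had 15.1 CPM in Sham, 28.9 CPM in D2 and 14.9 CPM in D7 in fibroblast-like cells, well under its endothelial-like level in Sham. Elsewhere it was found in the Chil3/Plac8 monocyte cluster, at 32.5 CPM in Sham (38 UMIs), 0.292 CPM in D2 (2 UMIs) and 4.97 CPM in D7 (21 UMIs), so that Sham lay above both injured libraries. It was also found in the Gzma/Nkg7 lymphocyte cluster at 32.8 CPM in Sham, 53.2 CPM in D2 and 36.8 CPM in D7, with overlapping intervals. Pgf (ENSMUSG00000004791, chr12:85166635-85177790) had 18.4 CPM in D7 against 29.7 CPM in Sham in lymphatic endothelial-like cells, with overlapping intervals. It had 30.6 CPM in D7 against 8.79 CPM in Sham in smooth muscle-like cells, a ratio of 3.48 (1.63 to 8.85) from 111 and 7 UMIs. Dendritic-like cells had 1.72 CPM of Pgf in Sham, 5.33 CPM in D2 and 21.1 CPM in D7.

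Outside endothelium, Flt1 was found in smooth muscle-like cells, at 119 CPM in D7 (107.8 to 130.5, 304 cells) against 42.7 CPM in Sham (29.6 to 59.7, 151 cells), a ratio of 2.78 (1.96 to 4.07). It was the 1 of 3 measured genes of the family that was apart there, where 18.6% of 3920 genes were. After thinning, 11.4% of these cells in D7 and 4.55% in Sham had Flt1, against 0.130% and 0.358% of B-like cells. Without thinning the shares were 39.8% in D7 and 11.3% in Sham, at median depths of 8486 and 4408 UMIs. Where each cell was classed singly the log2 ratio was 0.83, under the 2-fold limit, and markers of immune classes amounted to 11.2% of their library average in D7 and 15.1% in Sham. Those markers do not measure endothelial or pericyte-like cells. Rgs5, a pericyte marker, was the first leading gene of the smooth muscle-like cluster, ahead of Acta2 and Tagln. The part of admixed cells was not tested. Nrp1 had 141 CPM in D7 against 114 CPM in Sham in these cells, and Nrp2 54.0 CPM against 59.0 CPM, with overlapping intervals for both. Neutrophil-like cells had 9.56 CPM of Flt1 in Sham (6 UMIs), 25.8 CPM in D2 (23.6 to 28.1) and 20.2 CPM in D7 (16.7 to 24.2), and held 29.1% of the Flt1 UMIs of D2. By the marker rates free RNA would give 7.08, 9.02 and 1.65 CPM there, the D2 value resting on the 47.7% rate given with its limits above. Most neutrophil-like cells of Sham lay in another cluster than most of D2 and D7. Monocyte/macrophage-like cells had 24.7 CPM of Flt1 in Sham, 1.47 CPM in D2 and 4.73 CPM in D7, and 135 of the 161 UMIs in Sham lay in the Chil3/Plac8 cluster, at 115 CPM. That cluster had 3.36 CPM in D2 and 18.9 CPM in D7.

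The neuropilin genes were spread over endothelial, myeloid and fibroblast cells. Monocyte/macrophage-like cells held 21.98% of the Nrp1 UMIs in Sham, 88.5% in D2 and 27.2% in D7. Their Nrp1 level was 206 CPM in Sham (195.5 to 217.7), 213 CPM in D2 (208.9 to 217.1) and 110.1 CPM in D7 (106.0 to 114.3). Sham and D2 overlapped, and D7 stood at a ratio of 0.534 to Sham (0.4996 to 0.570) and 0.517 to D2 (0.495 to 0.539), both just short of 2-fold. By cluster the D7 levels lay below D2 in the Pf4/Fcrls cluster (147 against 311 CPM), the Cx3cr1/St18 cluster (120.1 against 199.9 CPM), the Mmp12/Areg cluster (28.1 against 77.1 CPM) and the Ifit2/Ifit3 cluster (58.4 against 226 CPM). In the Cd209f/Cd163 cluster Nrp1 was higher in D7, at 511 CPM (466 to 558) against 256 CPM in Sham (242 to 270).

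Nrp2 in monocyte/macrophage-like cells was 332 CPM in Sham (318.5 to 346.6), 144.5 CPM in D2 (141.2 to 148.0) and 186.5 CPM in D7 (181.1 to 192.0), with no overlap. The ratio to Sham was 0.435 in D2 (0.414 to 0.457) and 0.561 in D7 (0.533 to 0.591). The Sham level was that of the Cd209f/Cd163 cells, which had 202 CPM in D7 against 417 CPM in Sham. In the 4 clusters named above, Nrp2 was higher in D7 than in D2, as in the Pf4/Fcrls cells with 224 CPM against 184 CPM, so that Nrp1 and Nrp2 differed in opposite directions. Dendritic-like cells had 112 CPM of Nrp2 in Sham, 95.4 CPM in D2 and 154 CPM in D7. In Sham, 270 of these 422 cells lay in a cluster led by Lyz1, Retnla and Ear2, which held 17 of 975 in D2 and 53 of 600 in D7. Retnla and Mgl2, leading genes of that cluster, also led the Cd209f/Cd163 macrophage cluster. Dendritic-like levels of Sham and of the injured libraries thus come mostly from different clusters. None of the 3 dendritic-like pairs was 2-fold apart (shares over all genes 14.3% for D2 against Sham, 11.0% for D7 against Sham and 1.79% for D7 against D2). When the 10 genes were allowed among the variable genes, however, the dendritic-like log2 ratios for Nrp2 were 1.21 in D2 against Sham and 1.94 in D7 against Sham, and with stricter cell filters the D7 value was 1.035.

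In fibroblast-like cells Nrp1 was 168 CPM in Sham (161.8 to 174.5), 152 CPM in D2 (135.1 to 170.1) and 126 CPM in D7 (122.1 to 129.2). Nrp1 was highest in the Inmt/Penk cluster, with 319 CPM in D7 (272 to 371) against 295 CPM in Sham (282 to 309). It was 120.6 CPM in D7 against 87.6 CPM in Sham in the Pi16/Sema3c cluster. Thus Nrp1 was not lower within either cluster, and the Mfap4/Cthrc1 cells had 124 CPM in D7. Nrp2 was low in fibroblast-like cells, at 14.1 CPM in Sham, 19.3 CPM in D2 and 29.8 CPM in D7. Schwann-like cells, the myelinating cells of nerve, had 148 CPM of Nrp1 (93.9 to 222.4) and 161 CPM of Nrp2 (104.2 to 237.8) in the 50 cells of Sham. Among semaphorins and plexins of fibroblast-like cells, 2 of 3 measured were lower than in Sham and 1 was higher in D2, and 2 of 3 were lower and 0 higher in D7 (28.7% and 17.9% of all genes were apart). Sema3c, a neuropilin ligand, had 62.5 CPM in D2 and 122 CPM in D7 against 712 CPM in Sham. Sema3c is also a leading gene of the Pi16/Sema3c cluster.

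The list of regulators and targets of hypoxia-inducible factors was read beside Vegfa, one of their best-known targets. In fibroblast-like cells 2 of 6 measured were higher in D2 than in Sham and 3 of 6 in D7, where 28.7% and 17.9% of all genes were apart, so that the D2 count is near the share over all genes. The median log2 ratio in D7 was 0.63 beside -0.05 over all genes, while Vegfa was lower in D2 and in D7 than in Sham. Hif1a, the oxygen-labile subunit, had 376 CPM in D2 and 372 CPM in D7 against 85.6 CPM in Sham in these cells, and Ndrg1, a hypoxia-response gene, 204 CPM in D7 against 86.7 CPM in Sham. Mif, a cytokine induced by hypoxia, had 728 CPM in D2 and 193.5 CPM in D7 against 87.7 CPM in Sham. In monocyte/macrophage-like cells, where Vegfa was higher, 2 of 5 measured were higher in D2 and 3 of 6 in D7 than in Sham, where 13.4% and 16.8% of all genes were apart. Hif1a had 511 CPM in D2 and 303 CPM in D7 against 107.5 CPM in Sham, and Mif had 255 CPM in D2 and 240.5 CPM in D7 against 48.4 CPM in Sham. Hif1a and Mif were thus higher in both classes, and Vegfa was higher in one and lower in the other.

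The genes with levels most like those of each family member, by Pearson correlation of log2(CPM + 10) over 27 sums of class and library that share depth and libraries, were as follows. Kdr was most like Podxl, Dipk2b and Tie1 (r of 0.99 for each), Flt1 most like Lama3, Esam and Fabp4 (0.93 to 0.95), and Flt4 most like Wipf3, Klhl4 and Sgsm1 (0.98 to 0.99). Vegfd was most like Tmeff2, Hspb8 and Osr1 (0.96 for each). Vegfa had less close neighbours, Snx18, Ptgs2 and Basp1, of which the first had an r of 0.82. Nrp1 was most like S100a1, Plcb1 and Kitl (0.82 to 0.88), Nrp2 most like Cttnbp2nl, Aplp2 and Jup (0.85 to 0.91), and Vegfc most like Smco4, Lnx1 and Ly6c1 (0.81 to 0.87).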

How the data were processed

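Per the labels, live single cells of 6 mice per group were pooled for 1 library each with the Chromium Single Cell 3' v3 kit. The deposited values are raw UMI counts per gene and barcode, made by the authors with Cell Ranger 7.1.0 per the file headers, while versions 7.2.0 of that tool and 5.0.1 of Seurat, and the mm10 build, stand in the submitters' processing notes. Every deposited barcode held at least 500 UMIs.

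Barcodes with under 300 genes, under 500 UMIs or over 15% mitochondrial UMIs were removed (306 in Sham, 217 in D2 and 363 in D7). Scrublet in scanpy 1.11.5, at an expected rate of 8%, then removed 105 (1.41%), 472 (4.11%) and 228 (2.03%) as doublets. Its automatic threshold marked 0% of Sham, so the mean threshold of the other libraries, 0.298, was used there. Each cell was scaled to a total of 10000 and log-transformed. 2000 variable genes without the 10 family genes (1996 used), 30 components and 15 neighbours gave 30 Leiden clusters at resolution 1 (leidenalg 0.10.2, igraph 0.11.9), of which 26 were named from 171 markers of 18 classes. Libraries were not batch-corrected, as each is also a group. With 1 library per group, a cluster mostly of 1 library may be that library.

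UMIs were summed per class and library (NumPy 2.4.6, SciPy 1.17.1, pandas 2.3.3). Ratios have exact conditional binomial intervals, shares of cells exact Clopper-Pearson intervals, and limits beside a share of 0 are 3 counts of the total. The free RNA of a class was estimated from marker lists of other classes. For each list the summed level in the class was divided by that in the whole library, and the median over lists was taken. The lists were monocyte/macrophage, neutrophil and B for stromal classes, and fibroblast and smooth muscle for immune classes. Named genes are the 10 members, up to 3 genes per pathway list (7 lists, 109 genes) with the largest log2 ratio, the 3 nearest genes by pattern and the leading genes of clusters. The members, lists and markers were chosen with earlier results of these data known. Clusters 16, 23, 24 and 29 and the adipocyte-like cells are not compared.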

Additional observations from a re-analysis of the deposited data

Results flagged for a closer look

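Vegfa in one class moved against Vegfa in another between the same libraries, and the difference between classes was not tested. The D2 to Sham ratio was 17.1 in monocyte/macrophage-like cells and 0.249 in fibroblast-like cells. The D7 to Sham ratio was 17.1 in monocyte/macrophage-like, 2.96 in T/NK/ILC-like and 2.36 in neutrophil-like cells, against 0.281 in fibroblast-like cells. Flt1 likewise had a D7 to Sham ratio of 2.78 in smooth muscle-like cells and 0.402 in endothelial-like cells, which was not tested.

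Clusters without a class, which no comparison used, also held transcripts of the family. Cluster 16, led by Hist1h1b, Acp5 and Top2a, had 785.5 CPM of Nrp2 in D2 and 375 CPM in D7, and 58.1 CPM of Vegfc in D2. In D2 its 1542 Nrp2 UMIs lay in 55 of 312 cells. Of these UMIs, 1293 lay in the 32 cells that had a UMI of Acp5, an osteoclast and macrophage phosphatase. About as many, 1294, lay in the 64 cells with Mki67, a gene of dividing cells, so D2 did not single out Acp5. In D7, 1114 of 1412 UMIs lay in the 81 of 218 cells with Acp5, and 765 in the 143 with Mki67. Cell depth was not made equal for these counts. Cluster 24, led by Tenm2, Sfrp5 and Robo1, had 150.5 CPM of Vegfa in Sham, and its Nrp1 stood at 306.4 CPM in D7 against 336.5 CPM in Sham.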

How the results depend on the processing

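The count of pairs of gene and class at least 2-fold apart rested on the minimum level: with at least 20 CPM in place of 50 it was 12 for D2 against Sham, 18 for D7 against Sham and 5 for D7 against D2 (7, 10 and 1 as reported), and with no minimum 27, 32 and 13. The D7 against D2 count was also 2 at resolution 2 and with free RNA subtracted, and 0 with each library clustered on its own and with the mean over cells. No ratio that was called changed sign. Of the recomputed ratios, 424 kept their side of the 2-fold limit and, where not called, stayed within their counting interval. A further 37 that were not called also kept their side but moved beyond that interval, while 8 lost the limit and 8 gained it. Those lost are given beside their results. Those gained were Nrp2 in monocyte/macrophage-like cells of D7 against Sham (log2 ratio -1.14 as the mean over cells), Nrp1 there in D7 against D2 (-1.03 at resolution 2 and -1.06 with free RNA subtracted), Vegfa in neutrophil-like cells of D2 against Sham (1.10 with free RNA subtracted and 1.25 without the 3 richest cells) and Nrp2 in dendritic-like cells. The cause was not tested. At 2000 UMIs in place of 1000, 32 shares of cells moved beyond their interval and 2 did not, and unthinned all 34 moved. Such shares rise with the depth kept, so these counts do not bear on differences between libraries. In endothelial-like cells at 2000 UMIs, Kdr was found in 53.7% in Sham, 35.4% in D2 and 39.0% in D7. Flt1 was found in 83.6%, 63.4% and 70.6% of them, and Nrp1 in 61.3%, 30.5% and 40.5%. No replicate could be left out with 1 library per group. No paired analysis was possible because each group has 1 library. Cell number limits D2, with 113 fibroblast-like and 94 endothelial-like cells, and depth limits low genes, such as Pgf with 7 UMIs in Sham endothelial-like cells.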

Other observations

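Across the 27 sums of class and library, the family members themselves paired as Kdr with Flt4 (Pearson r of 0.85 on the log2(CPM + 10) scale), Kdr with Nrp2 (0.71), Kdr with Flt1 (0.67) and Vegfc with Nrp1 (0.67), whereas Vegfa ran against Kdr (-0.44) and Nrp2 (-0.43). These sums share libraries and depth and are not independent, so the values only describe where the transcripts lay.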
